A study of Gossypium hirsutum with 9 samples.

Results

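The comparison described here is that of XinWX with XinFLM ovules 1 day post anthesis (1 DPA), measured on 3 of the 9 dual-dye arrays of the series, those whose titles name both lines at 1 DPA. XinWX is a lintless-fuzzless mutant of upland cotton (Gossypium hirsutum), and XinFLM is a fuzzless mutant that bears lint. XinFLM was isolated from XinWX, and the study describes the pair as isogenic lines that differ at a single dominant locus for lint, so both lines are mutants and neither is a normal cotton. Ovules were sampled with the fibers on them from field-grown plants with no further treatment, and the ratio of the lines therefore cannot tell fewer fiber cells from less RNA per cell. On replicates 1 and 3 XinWX RNA was labeled with Cy3 and XinFLM RNA with Cy5, and replicate 2 was the dye swap. Per stage the methods state 2 biological replicates plus the swap, whereas a figure legend of the study gives 3 replicates of each sample. The replicates are thus described in more than 1 way, and the spread over the 3 arrays may be technical in part. The p-values measure only spread between arrays, estimated per probe from all 9 arrays of the series and not from these 3 alone. A probe can thus have a small p-value beside a wide SD over the arrays of 1 DPA.

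Cotton fibers are single cells of the seed coat epidermis. Lint fibers swell out of the ovule surface around the day of anthesis and then elongate for weeks, while the short fuzz fibers start some days later. Growth of these cells draws on lipid transport, wall synthesis, redox reactions and plant hormones, among them auxin, brassinosteroids and jasmonic acid (JA). JA is made from a membrane fatty acid that lipoxygenase oxygenates, allene oxide synthase turns into an unstable oxide and 12-oxophytodienoate reductase 3 (OPR3) later reduces.

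At 1 DPA, 22077 of the 29183 different probes were bright enough to be tested, meaning at least 400 intensity units above background in 1 channel on at least 2 of the 3 arrays. Of these, 19392 were measured on all 3 arrays and 2685 on exactly 2. Array 3 was unevenly bright, with a median of 1664 units in its XinWX channel and 694 units in its XinFLM channel, against 991.75 and 988.5 units on array 1 and 900 and 807.5 units on array 2. Over the probes, which do not count as replicates, the log2 ratios of arrays 1 and 2 correlated at r = 0.796, those of arrays 1 and 3 at r = 0.601 and those of arrays 2 and 3 at r = 0.564. The unequal channels of array 3 were evened out by the loess normalization within each array, but the intensity units quoted below were taken before it. Among the control spots, 30, 33 and 16 of the 48 that held only 50% DMSO reached 400 units on arrays 1 to 3, against 1 to 16 on the arrays of the other stages, while none of the 96 blank spots did so on any array. The median DMSO spot had 1089, 1093.8 and 356.25 units in the XinWX channel of arrays 1 to 3. In the XinFLM channel it had 568.5, 1109.5 and 50.75 units. Dim probe signals quoted below lie in this range, so reaching 400 units does not by itself show a transcript. The share of the DMSO spots' signals in the probes' intensities was not tested.

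A gene was called differentially expressed (a DEG) at a false discovery rate (FDR) under 0.05 in limma and a fold change of at least 2 between the lines, the limits that the study used. By this rule 875 of the 22077 probes differed (3.96%), 392 of them in favor of XinWX (1.78%) and 483 in favor of XinFLM (2.19%). Which line had more DEGs depended on the setting, since without array 3 there were 505 for XinWX and 479 for XinFLM, and with the authors' log2 ratios 585 and 564. Differences in favor of the lint-bearing line were larger. The median DEG higher in XinWX differed 2.35-fold (log2 ratio of XinWX over XinFLM 1.23), whereas the median DEG higher in XinFLM differed 3.07-fold (log2 -1.62). At least 4-fold higher were 30 probes in XinWX and 165 in XinFLM, and at least 8-fold higher were 0 probes in XinWX and 44 in XinFLM, as the bars of DEGs by fold size show. Without array 3, 54 probes were at least 4-fold and 6 at least 8-fold higher in XinWX, with 44 at least 8-fold higher in XinFLM. Without a minimum fold change the lines were close to even, with 2672 probes higher in XinWX (12.1%) and 2685 higher in XinFLM (12.2%), together 5357 (24.3%).

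**Figure D1:**
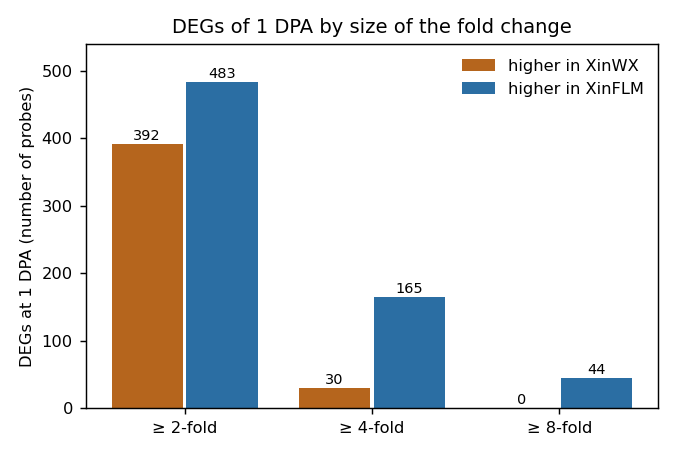
Bars give the number of DEGs between the lines at 1 DPA that reached a fold change of 2, 4 or 8, with probes higher in XinWX on the left of each pair and probes higher in XinFLM on the right. The pair at 2-fold is 392 and 483, the pair at 4-fold is 30 and 165, and at 8-fold the left bar is 0 and the right bar is 44.

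Over the arrays the DEGs mostly kept their sign. Of the 802 DEGs measured on all 3 arrays, 798 had the same sign on each, although these probes were picked by the mean of the same arrays, and of all probes on 3 arrays 49.3% had 1 sign throughout. A difference of at least 2-fold on each single array was found for 446 DEGs, 137 higher in XinWX and 309 higher in XinFLM. The SD of the log2 ratio was taken over the 2 or 3 arrays kept per probe. Its median was 0.30 in the DEGs and 0.26 in all probes tested. Many probes lay close to the limit, with 1993 past the FDR at a fold change between 1.5 and 2 and 412 DEGs between 2 and 2.5.

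DEGs were found at all signal strengths, as the plot of ratio against level shows. When the probes were ranked by level into 4 groups of equal size, the dimmest group held 83 DEGs higher in XinWX and 110 higher in XinFLM among 5520 probes, and the brightest held 122 and 154 among 5519. For part of the DEGs the line with the lower value was too dim to be measured. Of the DEGs higher in XinWX, 58 (14.8%) had an XinFLM signal under 400 units on all 3 arrays, and their fold change is only a lower bound, with a median of 1.31 and at most 4.21. Of the DEGs higher in XinFLM, 35 (7.25%) had an XinWX signal under 400 units throughout, with bounds of 2.55 in the median and at most 8.26. The bound sets the mean of the brighter line against the dim line's own normalized value on each array, or, if that is higher, against the lowest normalized value that any probe of 400 units or more had in the channel. It is a point value without an error and takes the whole signal of the brighter line as transcript.

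**Figure D2:**
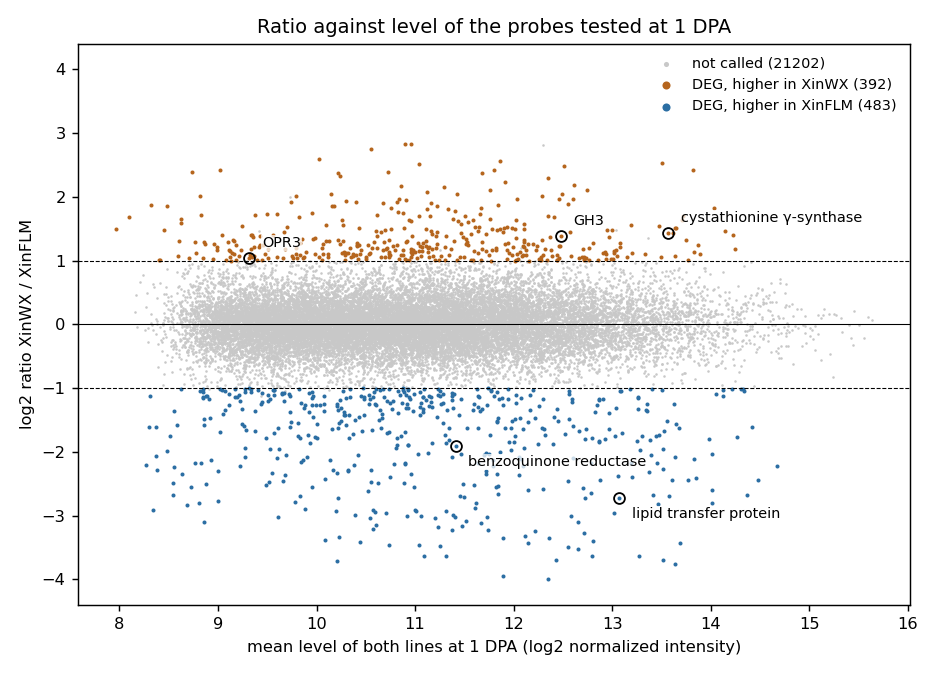
Each point is 1 of the 22077 probes tested at 1 DPA, by its mean level over both lines (log2 of the normalized intensity, x axis) and its log2 ratio of XinWX over XinFLM (y axis), with dashed lines at the fold change of 2. DEGs higher in XinWX (392, orange) stay below a log2 ratio of 3, DEGs higher in XinFLM (483, blue) extend to -4.00, and 5 called probes with a gene name are circled.

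The probe with the largest ratio in favor of XinFLM was 28K_169_F03, for which no gene name was given with the files. It had 965.5, 1486 and 866.5 units in XinWX on arrays 1 to 3, against 14062, 15848 and 16335 units in XinFLM. All 3 XinFLM values lay far above all 3 XinWX values, and the difference was 16.0-fold (log2 ratio -4.00 with an SD of 0.84 over 3 arrays, adjusted p = 7.44e-08 by limma). Values after ± are SDs over the 3 arrays of a stage throughout, and adjusted p-values are those of limma. Next to it was 28K_084_E11, also without a name, with 674, 914 and 849.5 units in XinWX and 8226, 11211 and 14995 units in XinFLM (a 15.4-fold difference, log2 -3.95 ± 0.81, adjusted p = 6.08e-06). Neither probe was bright in either line on the day before anthesis. At -1 DPA their medians were 676.5 and 570.5 units in XinWX and 471.5 and 463 units in XinFLM, and at 0 DPA they were 994 and 766 units in XinWX and 6489 and 5305.5 units in XinFLM. XinFLM therefore had the brighter signal of both probes from the day of anthesis, while the XinWX signal was at most 1486 units for 28K_169_F03 and 914 units for 28K_084_E11 on the arrays of 1 DPA.

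In favor of XinWX the largest ratios were those of 28K_277_G11 and 28K_118_B04, again unnamed. 28K_277_G11 had 6183, 7136.5 and 2541.5 units in XinWX, against 390, 491 and 366.5 units in XinFLM (7.11-fold, log2 2.83 ± 1.35, adjusted p = 2.75e-05), with the smallest ratio on array 3 and a log2 ratio of 3.60 without it. In 28K_118_B04 the signal was 5781, 5715 and 3878 units in XinWX and 541, 341 and 428 units in XinFLM (7.08-fold, log2 2.82 ± 0.98, adjusted p = 1.64e-06). The XinFLM signal was under 400 units on 2 arrays for 28K_277_G11 and on 1 array for 28K_118_B04. Both probes were about equal in the lines earlier. At -1 DPA their log2 ratios were 0.13 ± 0.33 and 0.11 ± 0.22, and at 0 DPA they were -0.25 ± 0.20 and -0.31 ± 0.04. The mean log2 normalized intensity of 28K_277_G11 in XinWX was 12.60, 10.88 and 12.31 at -1, 0 and 1 DPA. In XinFLM it was 12.48, 11.125 and 9.48. For 28K_118_B04 it was 13.23, 11.915 and 12.37 in XinWX and 13.12, 12.23 and 9.54 in XinFLM. XinFLM thus fell at each step, while XinWX at 1 DPA was above 0 DPA but not above -1 DPA. The ratio of 28K_118_B04 at 1 DPA exceeded that at 0 DPA by log2 3.14 (adjusted p = 9.57e-05) and that of 28K_277_G11 by 3.08 (adjusted p = 0.000961).

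The stages share no array, so the ratios of the 1 DPA DEGs at the other stages are separate measurements, although the DEGs were picked by their ratio at 1 DPA, which favors a larger value there. Of the DEGs higher in XinWX, 376 were tested at all stages, and their median log2 ratio was 0.74 at -1 DPA, 0.31 at 0 DPA and 1.23 at 1 DPA. For the 424 DEGs higher in XinFLM the medians were -0.25 at -1 DPA, -0.69 at 0 DPA and -1.57 at 1 DPA. Over all 20873 probes tested at every stage the median lay within 0.01 of 0 at each stage. The SD of the log2 ratio over probes was 0.43 to 0.58 on the arrays of -1 DPA, 0.36 to 0.39 at 0 DPA and 0.53 to 0.57 at 1 DPA, so the ratios of 0 DPA were smaller in general, and the part of this in the medians was not tested. The DEGs in favor of XinWX thus tended to favor that line already before anthesis and less at anthesis, while those in favor of XinFLM gained from stage to stage. The sign was that of 1 DPA for 324 of 387 XinWX probes at -1 DPA (83.7%) and 273 of 377 at 0 DPA (72.4%). For the probes of XinFLM it was the same for 320 of 426 at -1 DPA (75.1%) and 409 of 455 at 0 DPA (89.9%). Over all probes the sign was shared by 64.9% with -1 DPA and by 61.0% with 0 DPA.

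The level of each line, taken from its own channel after normalization across the arrays, shows on which side the ratio moved. For the DEGs higher in XinWX the median level (log2 of the normalized intensity) in XinWX was 12.36 at -1 DPA, 11.64 at 0 DPA and 11.84 at 1 DPA, and in XinFLM it was 11.50, 11.32 and 10.45 at these stages. Both lines had thus less signal of these probes after anthesis than before, with the lower value in XinFLM. From -1 to 1 DPA the median change was -0.49 in XinWX and -1.01 in XinFLM, and the change was upward for 78 of the 376 probes in XinWX and for 39 in XinFLM. For the DEGs higher in XinFLM the median level was 10.49, 10.67 and 10.41 in XinWX and 10.80, 11.44 and 12.17 in XinFLM. Here the median change from -1 to 1 DPA was -0.17 in XinWX and 1.29 in XinFLM, and it was upward for 171 of the 424 probes in XinWX and for 389 in XinFLM. These changes hold the values of 1 DPA by which the probes were picked, and no test was made on them.

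**Figure D3:**
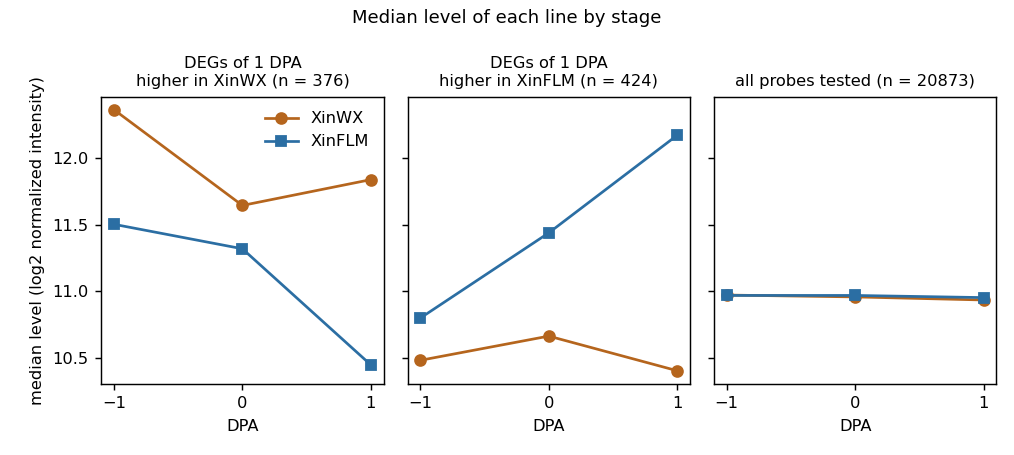
Points give the median level (log2 of the normalized intensity, y axis) of XinWX (orange) and XinFLM (blue) at -1, 0 and 1 DPA (x axis) for the 376 DEGs of 1 DPA higher in XinWX, the 424 DEGs higher in XinFLM and all 20873 probes tested at every stage. In the left panel the XinFLM line ends at 10.45 and in the middle panel at 12.17, while over all probes both lines stay near 10.95.

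By a direct test of the ratio, 1731 of 21071 probes differed between 1 and 0 DPA (8.22%), 993 of them with the ratio moved toward XinWX and 738 toward XinFLM. Between 1 and -1 DPA 2263 of 21229 probes differed (10.7%), 989 moved toward XinWX and 1274 toward XinFLM. A ratio larger at 1 DPA than at both other stages by these tests was found for 142 of the 376 DEGs higher in XinWX and for 278 of the 424 higher in XinFLM, with the selection at 1 DPA in their favor. The count against 0 DPA was 412 with the swapped array averaged with replicate 1, 796 and 804 when replicate 1 or replicate 2 of 0 DPA was left out and 1013 when replicate 1 of 1 DPA was, and the count against -1 DPA was 900 with this averaging and 1456 without -1 DPA replicate 1. Some DEGs of 1 DPA had been called for the other line before. At -1 DPA 10 of 387 DEGs of XinWX (2.58%) were DEGs higher in XinFLM, against 1.22% of all probes tested at both stages, and 13 of 426 DEGs of XinFLM (3.05%) were DEGs higher in XinWX, against 2.11% of all. At 0 DPA these numbers were 6 of 377 (1.59%, against 1.07%) and 2 of 455 (0.44%, against 0.432%).

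Gene names were given by the study for 18 probes, which it picked from these arrays, and their direction is therefore no independent evidence. All 18 were tested at 1 DPA. Of them 3 were DEGs higher in XinWX (1.78% of all probes tested) and 2 were DEGs higher in XinFLM (2.19% of all). Without a minimum fold change 10 passed the FDR (24.3% of all), 7 with the higher value in XinWX and 3 in XinFLM. The log2 ratio was above 0 for 13 of the 18 (median 0.25), against 49.2% of all probes tested. Each has a primer pair for RT-qPCR in the study, which is the only sequence that ties the probe to its gene here, and the pairs that bear on the results below are printed from its primer list.

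The lipid transfer protein probe 28K_179_F11 had the largest ratio of the named probes. Lipid transfer proteins are small secreted proteins that carry lipids between membranes and to the cuticle and are abundant in young cotton fibers. The primers of this probe were the following, 5′ to 3′.
28K_179_F11 forward: gcaagtattttccttacacg
28K_179_F11 reverse: tacacaacgcataactctgg
It had 2277.5, 3282.5 and 3257.5 units in XinWX, against 16310, 24330 and 12186 units in XinFLM. No XinWX value came near an XinFLM value, and the arrays gave almost the same log2 ratio, -2.66, -2.88 and -2.66. XinFLM thus had 6.64 times the signal of XinWX (mean log2 ratio -2.73 ± 0.13, adjusted p = 3.96e-09). Its ratio was further in favor of XinFLM at 1 DPA than at 0 DPA by log2 -1.30 (adjusted p = 0.000568). With the spread of the arrays scaled to be equal, that step was -0.59 and did not pass (adjusted p = 0.107).

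Benzoquinone reductase 28K_233_A03, an enzyme that reduces quinones and limits their oxidative harm, was the other named DEG higher in XinFLM. Its primer pair is shown beside that of the lipid transfer protein because these probes carry the named differences in favor of lint-bearing ovules.
28K_233_A03 forward: catctgttgaaggtgttg
28K_233_A03 reverse: atcattccgaatcttgttg
The signal was 1112, 860.5 and 2038.5 units in XinWX and 5642, 3210.5 and 3086.5 units in XinFLM. All XinFLM values were above all XinWX values, although on array 3 the units of the lines were closer. After normalization the log2 ratios were -2.21, -1.91 and -1.60, with a 3.75-fold difference in favor of XinFLM (mean -1.91 ± 0.31, adjusted p = 3.06e-07). The ratio was log2 -1.01 beyond that of 0 DPA (adjusted p = 0.00662), and this step was -0.55 with equal spread of the arrays (adjusted p = 0.156) and -0.98 with the swapped array averaged with replicate 1 (adjusted p = 0.0994), and passed in neither.

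Cystathionine gamma-synthase 28K_167_D03, which makes the precursor of methionine and so feeds the methyl donor and ethylene pathways, had the largest ratio in favor of XinWX among the named probes. It had 12378, 19036 and 24631 units in XinWX and 4498, 4922 and 9383.5 units in XinFLM. The signal was strong in both lines, and the values of the lines did not overlap. The difference was 2.70-fold (mean log2 ratio 1.44 ± 0.57, adjusted p = 0.000157). Its step from 0 DPA, where the log2 ratio was 0.51 ± 0.36, did not pass (log2 0.93, adjusted p = 0.0612).

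The ABC transporter probe 28K_057_D05, for a membrane pump, passed the FDR in favor of XinWX under the fold limit. It had 2954, 3776 and 6102 units in XinWX and 1575.5, 2206 and 1735 units in XinFLM, and the ratio was 1.71-fold with little spread (log2 0.78 ± 0.11, adjusted p = 0.000234). The ratio was smaller than at -1 DPA by log2 -0.66 (adjusted p = 0.0168), a call lost in 3 of 20 alternative settings.

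**Figure D4:**
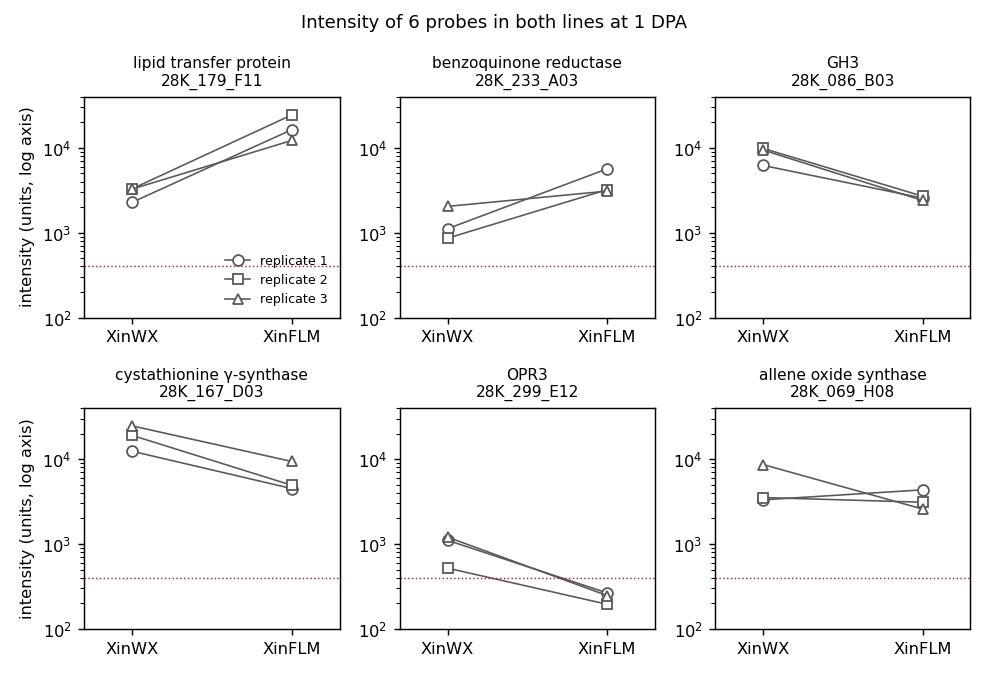
Background-subtracted intensity before normalization (units, log axis) of 6 named probes in XinWX (left of each panel) and XinFLM (right), with 1 line per array of 1 DPA and a dotted line at 400 units. Lipid transfer protein and benzoquinone reductase climb toward XinFLM on all 3 arrays, GH3, cystathionine gamma-synthase and OPR3 descend, with OPR3 under 400 units in XinFLM on each array, and the lines of allene oxide synthase cross.

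GH3 proteins join amino acids to hormones, in Arabidopsis to auxin or to JA depending on the member, and both GH3 probes were higher in XinWX by the FDR. In 28K_086_B03 the signal was 6191, 9834 and 9404 units in XinWX and 2550.5, 2688.5 and 2392 units in XinFLM. XinFLM was steady over the arrays and XinWX was above it on each. This probe was a DEG with a 2.61-fold difference (mean log2 ratio 1.39 ± 0.36, adjusted p = 7.97e-06). The second probe, 28K_236_A10, was dimmer, with 742, 869 and 1200 units in XinWX and 391, 155 and 376 units in XinFLM. Since XinFLM stayed under 400 units throughout, its difference had a lower bound of 1.51-fold (fitted log2 0.88 ± 0.64, adjusted p = 0.00276). On arrays 1 and 2 its XinWX signal was under the median DMSO spot of that channel (1089 and 1093.8 units). Under plain background subtraction, with the authors' log2 ratios and without array 3 the fitted log2 ratio of 28K_236_A10 passed the fold limit, at 1.08, 1.16 and 1.18.

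The log2 ratios of the 5 probes for JA synthesis were above 0 at 1 DPA on the mean of the arrays (median 0.35), as were 49.2% of all probes, and 2 of the 5 passed the FDR, as did 24.3% of all, 1 of them as a DEG. For both allene oxide synthase probes this rested on array 3, without which 28K_069_H08 was at -0.11 and 28K_156_D09 at 0.02, and 28K_069_H08 was at -0.06 with array weights. At -1 DPA 2 of the 5 were above 0 (median -1.00) and at 0 DPA 3 of the 5 (median 0.61). For the first enzyme, lipoxygenase, 28K_275_B02 had 3700, 8143 and 3826 units in XinWX and 2437, 4468 and 1310 units in XinFLM. XinWX was brighter on each array, though its lowest value was under the highest of XinFLM, and the ratio passed the FDR at 1.53-fold (log2 0.61 ± 0.20, adjusted p = 0.0291). It did not pass without array 1 (adjusted p = 0.105), without array 2 (0.145), with these averaged (0.147) or with no filter on dim spots (0.0587). This probe had favored XinFLM before. Its log2 ratio was -1.00 ± 0.66 at -1 DPA and -0.69 ± 0.15 at 0 DPA, and the move from 0 to 1 DPA was log2 1.31 (adjusted p = 0.00797), which did not pass with the swapped array averaged with replicate 1 (1.29, adjusted p = 0.067).

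The other lipoxygenase probe, 28K_150_B07, was dim. It had 593, 578 and 616.5 units in XinWX, against 297, 235 and 345 units in XinFLM, so that XinFLM was not measurable on any array. The log2 ratios were 0.84, 0.65 and -0.43, and the mean of 0.35 ± 0.68 did not pass (adjusted p = 0.228). Its fitted ratio was below that of -1 DPA by log2 -0.96 (adjusted p = 0.047), a call that was lost in 15 of 18 alternative settings and whose size is uncertain with XinFLM under 400 units.

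Both allene oxide synthase probes gave no difference between the lines at 1 DPA that passed the test. 28K_069_H08 had 3311, 3526 and 8637 units in XinWX and 4345, 3105 and 2581 units in XinFLM. The lines overlapped, and the log2 ratios of -0.31, 0.10 and 0.83 averaged 0.20 ± 0.58 (adjusted p = 0.427), or -0.11 without array 3. 28K_156_D09 had 5923, 6612 and 9241 units in XinWX and 7085.5, 5764 and 2967.5 units in XinFLM, with log2 ratios of -0.12, 0.15 and 0.76 (mean 0.26 ± 0.45, adjusted p = 0.34). The probes followed each other from array to array. Relative to -1 DPA, where both ratios favored XinFLM, they moved toward XinWX by log2 1.39 (28K_069_H08, adjusted p = 0.0022) and 1.46 (28K_156_D09, adjusted p = 0.00274), calls kept in all 20 alternative settings.

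OPR3 28K_299_E12 was the JA synthesis probe that was a DEG. It had 1105.5, 520 and 1206 units in XinWX and 265.5, 195 and 247 units in XinFLM. XinFLM was under 400 units on every array, and the lower bound of the difference was 1.48-fold in favor of XinWX. On array 2 the XinWX signal was under the median DMSO spot of that channel (1093.8 units). The fitted log2 ratio was 1.04 ± 0.64 (adjusted p = 0.00139), close to the limit. It was 0.68 without array 1, 0.93 with loess within print blocks, 0.93 with equal spread of the arrays and 0.97 with the swapped array averaged with replicate 1, and the probe was then no DEG. At 0 DPA the ratio was -0.25 ± 0.13. With the ratio of 1 DPA at its lower bound, the move from 0 to 1 DPA was log2 0.81 toward XinWX (adjusted p = 0.00944 for the fitted values).

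The primers listed for OPR3 28K_299_E12 and for lipoxygenase 28K_150_B07 are nearly the same, which matters for reading these names. Capitals mark the run of 17 bases that both share in each direction.
28K_150_B07 forward: CTCGGACTACTTACCATttc
28K_299_E12 forward: gCTCGGACTACTTACCAT
28K_150_B07 reverse: TCACCTGCTCAGATGTAa
28K_299_E12 reverse: cTCACCTGCTCAGATGTA
Each OPR3 primer starts 1 base further 5′ than that of lipoxygenase, and among the 18 probes the primers of no other pair of probes shared more than 8 bases in a row. Which of the names belongs to this primer sequence cannot be told from the list, and the probe sequences were not used here.

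The auxin response factor ARF7, 28K_256_D11, a transcription factor that turns auxin signals into gene expression, had 5591.5, 3326 and 3933 units in XinWX and 2733.5, 1867 and 720 units in XinFLM. In these units XinWX was brighter on every array without overlap. After normalization the levels overlapped, with XinWX at 11.445 on array 3 and XinFLM at 11.789 on array 1. The ratio was 1.96-fold (log2 0.97 ± 0.24, adjusted p = 5.4e-05), just under the fold limit. It passed that limit with plain background subtraction (log2 1.03), with the authors' log2 ratios (1.03) and without array 2 (1.11). BAK1 28K_164_D07, the co-receptor kinase of brassinosteroid perception, had 640.5, 529 and 1342 units in XinWX and 781.5, 613 and 1526 units in XinFLM. Its ratio passed the FDR in favor of XinFLM (log2 -0.65 ± 0.57, adjusted p = 0.0244), with -1.31 on array 3 and -0.28 and -0.36 on arrays 1 and 2, and it did not pass without array 3 (log2 -0.32, adjusted p = 0.212), with array weights (0.0887) or with no filter on dim spots (0.0531). At 0 DPA the log2 ratio was -1.76 ± 0.44, and the move from there to 1 DPA was 1.11 toward XinWX (adjusted p = 0.022), a call lost in 6 of 20 alternative settings. Sterol 14-demethylase 28K_096_A10, an enzyme on the way to plant sterols and brassinosteroids, had a log2 ratio of 0.22 ± 0.23 that did not pass (adjusted p = 0.247).

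The 4 probes that the study used as unchanged genes gave log2 ratios between -0.33 and 0.24 at 1 DPA, and none passed the FDR in the main fit. The study describes them as not differing between the lines on these same arrays, so this result is no independent evidence. The values were 0.16 ± 0.46 for 3-beta-hydroxy-delta5-steroid dehydrogenase 28K_001_D11 (adjusted p = 0.534), 0.24 ± 0.17 for the nuclear pore protein 28K_141_D12 (0.168) and -0.06 ± 0.16 for the splicing factor 28K_118_C05 (0.796). For ribosomal protein L30 28K_206_B07, which was too dim on array 2 to be kept, the ratio was -0.33 ± 0.14 (n = 2 arrays, adjusted p = 0.137).

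**Figure D5:**
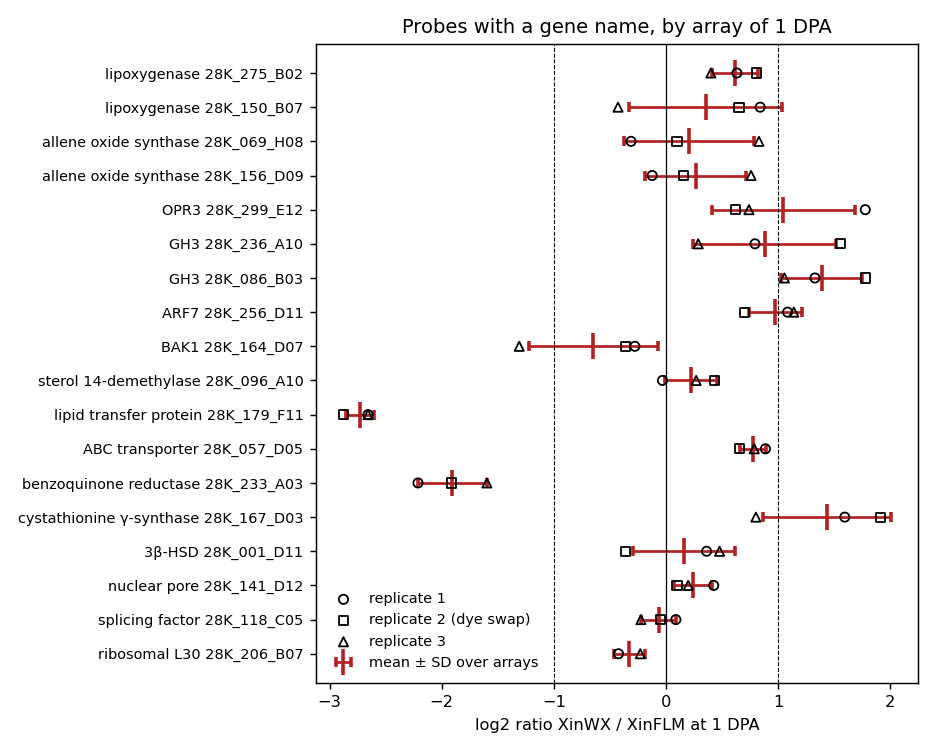
Log2 ratios of XinWX over XinFLM at 1 DPA (x axis) for the 18 probes with a gene name, with 1 symbol per array, the mean as a red tick and its SD over the arrays as a red bar, and dashed lines at the fold change of 2. Lipid transfer protein (-2.73) and benzoquinone reductase (-1.91) lie apart on the XinFLM side, and both allene oxide synthase probes spread over 0.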

How the data were processed

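RNA of XinWX and XinFLM ovules with fibers was hybridized to cotton cDNA arrays, 3 at each of -1, 0 and 1 DPA. The deposited scanner tables hold the median intensity of each spot above local background in both channels and a quality score (flag), made by the authors' scanner and image software with no normalization. A further deposited table holds the authors' log2 ratios of Cy5 over Cy3, normalized within arrays, with the swap not turned. They correlated with those computed here at r = 0.994, 0.986 and 0.944 on arrays 1 to 3 of 1 DPA, and were used as an alternative. Among tools, limma 3.4.5 and R 2.12.2 are listed in the processing notes of the submitters.

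Here the intensities were background-corrected in limma 3.58.1 (R 4.3.3) by normexp with an offset of 50. Spots under 400 units in both channels, between 19.8% and 29.6% of the probe spots at 1 DPA, and control spots had weight 0 in a loess fit within each array (span 0.3, 4 iterations). Ratios were turned to XinWX over XinFLM, and 1 coefficient per stage was fitted over all 9 arrays. Probes kept on at least 2 of 3 arrays were tested, with Benjamini-Hochberg adjustment over all of them. Stage differences are contrasts of the same fit. Levels per line were taken after Aquantile normalization and were not tested. The array number limits the precision. Primers were compared and figures drawn in Python 3.11.15 with matplotlib 3.10.9.

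Named are the 18 probes with a gene name in the study and the 2 DEGs with the largest ratio in each direction on all 3 arrays. No probe annotation was used here, so gene lists and cell type markers were not tested. In the primer list 28K_167_D03 and 28K_096_A10 carry another prefix and were taken as these probes. The comparison, probes and alternatives were chosen with earlier results of these data known. Alternatives covered background correction, the filter on dim spots, normalization, a replicate block, a dye term, the swapped array averaged with another, array weights, leaving out arrays, the arrays fitted, the authors' ratios and the thresholds.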

Additional observations from a re-analysis of the deposited data

Results flagged for a closer look

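Some 50% DMSO spots, which hold no probe, reached 400 units in at least 1 channel at 1 DPA, namely 30 of 48 on replicate 1, 33 on replicate 2 and 16 on replicate 3, while none of the 96 blank spots did so.

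The ratio between the lines at 1 DPA differed by limma's contrast from that at 0 DPA for 10 of the 22 named probes, against 8.22% of all probes tested. Of these 22, 28K_277_G11, 28K_118_B04, 28K_169_F03 and 28K_084_E11 were chosen for their ratio at 1 DPA, which favors a large stage difference. The study picked the others from these same arrays. The counts against either stage lie above the share of all probes, but with probes picked this way they are no evidence of an excess. The differences of log2 ratio, 1 DPA minus 0 DPA, were 3.138 for 28K_118_B04, 3.077 for 28K_277_G11 and 1.305 for lipoxygenase 28K_275_B02. They were 1.294 (fitted, 0.81 at the lower bound) for OPR3 28K_299_E12, 1.113 for BAK1 28K_164_D07, 0.7089 for GH3 28K_086_B03 and 0.6754 for ARF7 28K_256_D11. All of these were toward XinWX. Toward XinFLM they were -1.3 for lipid transfer protein 28K_179_F11, -1.226 for 28K_169_F03 and -1.008 for benzoquinone reductase 28K_233_A03. The ratio differed from that at -1 DPA for 12 probes, against 10.7% of all tested. The differences, 1 DPA minus -1 DPA, were 2.716 for 28K_118_B04, 2.704 for 28K_277_G11, 1.614 for lipoxygenase 28K_275_B02, 1.463 for allene oxide synthase 28K_156_D09 and 1.392 for its other probe 28K_069_H08. They were -0.6615 for ABC transporter 28K_057_D05, -0.7343 for sterol 14-demethylase 28K_096_A10 (a call lost in 5 of 20 alternative settings), -0.9638 (fitted, with XinFLM under 400 units at 1 DPA) for lipoxygenase 28K_150_B07, -1.996 for 28K_233_A03, -2.193 for 28K_179_F11, -4.155 for 28K_084_E11 and -4.377 for 28K_169_F03.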

How the results depend on the processing

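The number of DEGs at 1 DPA was 783 to 984 when 1 array was left out, with 345 to 505 higher in XinWX and 437 to 479 higher in XinFLM, each highest without array 3. It was 843 with the swapped array averaged with replicate 1 (356 higher in XinWX, 487 in XinFLM) and 1149 from the authors' log2 ratios (585 and 564). With the arrays scaled to equal spread, 255 probes were higher in XinWX and 373 in XinFLM, and without a minimum fold change 5357 passed, 2672 and 2685 of them. At least 8-fold higher in XinWX were 0 to 9 probes and in XinFLM 13 to 75 over all alternatives. The cause of these shifts was not tested.

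The difference of the ratio between 1 and 0 DPA (1731 probes) was counted for 1088 with no filter on dim spots, 412 with replicates 1 and 2 averaged, 4011 with array weights and 796 to 2073 without 1 array. That between 1 and -1 DPA (2263 probes) was 900, 3807 and 1456 to 2367 with averaging, weights and 1 array left out. Signs turned for 3 ratios of 1 DPA that were near 0 and had not passed, and for 1 stage difference that had. 28K_001_D11 was at -0.000772 with both channels required to reach 400 units and from -0.001403 to 0.4195 without 1 array. 28K_069_H08 was at -0.05983 with array weights and from -0.1072 to 0.4631 without 1 array, and 28K_118_C05 at 0.009885 and from -0.1383 to 0.01759 in these settings. The step of 28K_169_F03 from 0 to 1 DPA, which had passed at -1.226 (adjusted p = 0.041), was 0.04511 with equal spread of the arrays.

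Same-numbered arrays of different stages deviated from their stage means with correlations across probes of -0.067 to 0.087. These correlations cannot tell whether the numbers pair samples, and the main fit used no pairing. With the replicate block 878 DEGs, 1798 differences from 0 DPA and 2362 from -1 DPA were counted, and of the named results the difference of 28K_086_B03 from 0 DPA no longer passed. That call was lost in 14 of 20 settings, and those of ARF7 28K_256_D11 and of 28K_169_F03 from 0 DPA in 8 and 9, counting the reversed value. The limit of 400 units left 58 DEGs of XinWX and 35 of XinFLM with a lower bound only.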
